A study of Saccharomyces cerevisiae with 14 samples.

Results

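The zinc homeostasis genes of lager yeast were followed through a brewery fermentation: ZAP1 (YJL056C), ZRT1 (YGL255W), ZRT2 (YLR130C), ZRT3 (YKL175W), ZRC1 (YMR243C), COT1 (YOR316C), IZH1 (YDR492W), IZH2 (YOL002C) and IZH4 (YOL101C). They are 9 of the 5449 Saccharomyces cerevisiae genes to which the probe annotation assigns probe sets of their own. Each had exactly 1 such probe set, none is of the type that the manufacturer marks as shared between transcripts, and all 9 passed the filter on low signal. Total RNA of strain CB11, taken 8, 30, 60, 80 and 102 h after the wort had been pitched with yeast, was hybridised to single-colour Affymetrix Yeast Genome 2.0 arrays. There were 2 arrays for 30 h and 3 for each of the other times. All arrays share 1 production vessel of 3275 hL, filled in stages, whose yeast had already been used in 4 fermentations. The wort, made of malt with a sugar adjunct, held 0.2 mg/L zinc sulphate and was oxygenated to 25 mg/L before filling. A propagation of the same strain, sampled apart and not analysed here, used wort with 0.5 mg/L zinc, and the labels do not state whether it supplied the yeast of this vessel. How much zinc was left in the wort or in the cells at each sampling was not analysed here. The labels do not describe separate cultures for the samples of a time, and the p-values below therefore rest on a spread between samples that may be technical. In RNA of whole yeast samples, a lower signal can mean fewer cells of a kind or less RNA per cell, which cannot be told apart. Lager yeasts are hybrids that carry a genome of a related species, and a probe set may respond to transcripts of both parents.

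Zinc is a cofactor of many yeast proteins, among them alcohol dehydrogenase, and brewers add it to wort because a shortage slows fermentation. In S. cerevisiae the transcription factor Zap1 senses zinc and, when zinc is scarce, activates genes for uptake across the plasma membrane, for release from the vacuole and for adaptation of metabolism, including its own gene. The vacuole is the main zinc store, filled by transporters that also protect the cell when zinc is in excess. The IZH genes code for membrane proteins related to animal adiponectin receptors, and their expression is known to respond to zinc.

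Values below are signals per probe set after quantile normalization, which gives every array the same distribution of values, and log2 changes carry their standard error (SE) from a limma fit over all 14 arrays. A gene passed when its Benjamini-Hochberg adjusted p over all 5338 tested probe sets was under 0.05. The median deposited signal of an array lay between 22.6 and 38.7, a spread of 0.777 on the log2 scale, and 94.4% to 96.7% of S. cerevisiae probe sets were above background. Arrays of the same time correlated at 0.903 to 0.994. The log2 ratio of 5′ to 3′ signal over 8 control transcripts was -3.28 on 8 h replicate 1, -4.41 on 60 h replicate 1 and -1.85 on 60 h replicate 2, against -1.18 to -0.51 on the other 11 arrays. These 3 arrays are called low-5′ arrays, and changes without them are given beside some of the results they touch. Results given without such a value may also depend on these arrays. A fit without them rests on 60 h replicate 3 alone for that time.

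Most of the zinc genes changed during the fermentation. By the moderated F-test over the 5 times 7 of the 9 passed, ZAP1, ZRT2, ZRT3, ZRC1, IZH1, IZH2 and IZH4, where 68.5% of all tested probe sets did, so the number is close to the background. ZRT1 (adjusted p = 0.054) and COT1 (adjusted p = 0.11) did not pass. All 9 passed without the low-5′ arrays, where 81.9% of all probe sets did, and on the authors' scale as deposited, where 72.5% did. Between the end and the start, 102 h against 8 h, 5 zinc genes were higher, where 21.6% of all probe sets were, and 2 were lower, where 28.6% were (50.2% in either direction). The 9 genes had a median log2 change of 0.56, against -0.09 for all tested probe sets. Their signals were above background on every array.

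**Figure D1:**
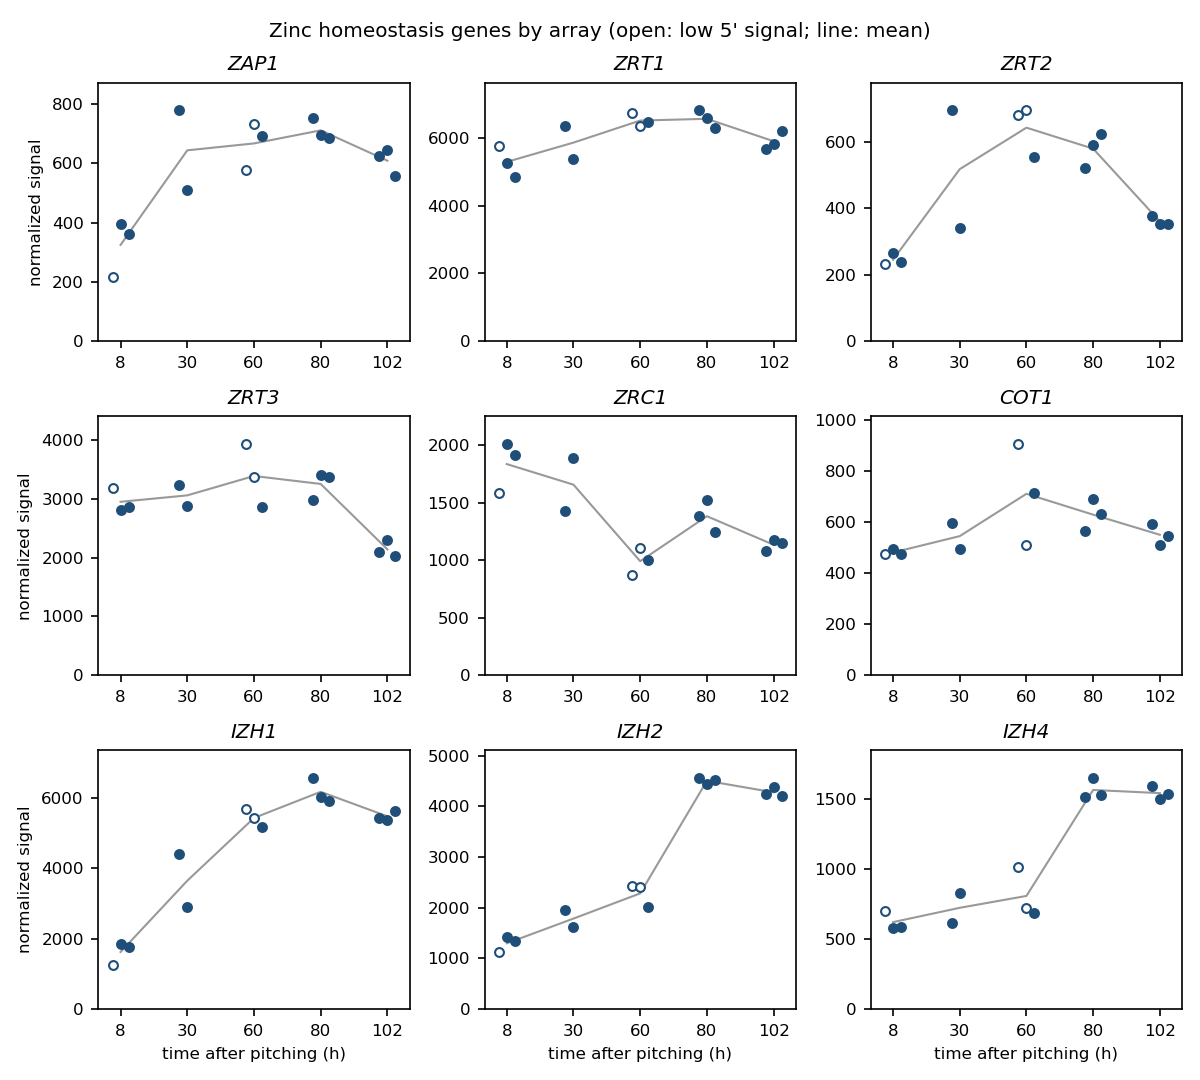
Normalized signal (vertical axes, linear, each panel with its own scale from 0) of the 9 zinc homeostasis genes on each of the 14 arrays, by time after pitching in h (horizontal axes); open points are the 3 low-5′ arrays and grey lines join the means of the times. IZH2 and IZH4 are higher on every array of 80 and 102 h than on any earlier array. The mean of IZH2 also climbs from 8 to 60 h, in steps that did not pass. IZH1, ZAP1 and ZRT2 are lowest at 8 h, and ZRC1 is lowest at 60 h.

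ZAP1, the gene of the zinc-responsive activator, was lowest at 8 h. It gave signals of 218, 394 and 363 at 8 h, 779 and 508 at 30 h, 576, 734 and 690 at 60 h, 752, 697 and 684 at 80 h, and 623, 645 and 558 at 102 h. No array of a later time was as low as any 8 h array, while the ranges of neighbouring times in the order 80, 60, 30 and 102 h overlapped. At 102 h the mean was 609 ± 44.8, against 325 ± 94.0 at 8 h (SD, n = 3 each), a log2 change of 0.95 ± 0.21 (limma adjusted p = 0.0025) and of 0.69 without the low-5′ arrays (adjusted p = 0.0014). The 30 h arrays averaged 643 ± 191 (SD, n = 2) and stood 1.00 ± 0.24 above 8 h, which did not pass (adjusted p = 0.078). It passed at 0.74 when the low-5′ arrays were left out (adjusted p = 0.025) and at 1.31 when 30 h replicate 2 was (adjusted p = 0.018). Leaving out 60 h replicate 1 also brought it past the threshold (adjusted p = 0.041), and leaving out 30 h replicate 1 gave 0.69 (adjusted p = 0.99). None of the comparisons of 60 h against 30 h, 80 h against 60 h or 102 h against 80 h passed for ZAP1, with log2 changes of 0.08, 0.10 and -0.23.

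The uptake genes of the plasma membrane are ZRT1, the high-affinity transporter gene, and ZRT2, the low-affinity one. Signals of ZRT1 were 5760, 5266 and 4833 at 8 h, 6342 and 5369 at 30 h, 6717, 6342 and 6455 at 60 h, 6809, 6567 and 6293 at 80 h, and 5672, 5820 and 6194 at 102 h. The means of its highest and lowest time, 80 h and 8 h, were 1.24-fold apart, and the ranges of 102 h and 8 h overlapped. On the authors' scale the means of ZRT1 were 5127, 5939, 7206, 6675 and 5797 in time order, so that 60 h was highest. ZRT1 stood at 0.16 ± 0.10 for 102 h against 8 h (limma adjusted p = 0.19), and at 0.22 without the low-5′ arrays (adjusted p = 0.048). On these arrays 0.65% of probe sets were brighter than that of ZRT1.

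ZRT2 was lowest at 8 h and was lower again at the end. It gave 233, 265 and 238 at 8 h, 695 and 341 at 30 h, 680, 695 and 554 at 60 h, 522, 592 and 625 at 80 h, and 376, 354 and 352 at 102 h. The 102 h arrays lay below all arrays of 60 and 80 h and above all of 8 h, and the 30 h arrays were far apart. Its mean at 102 h was 361 ± 13.0, against 580 ± 52.7 at 80 h (SD, n = 3 each), so that ZRT2 fell by 0.68 ± 0.20 (limma adjusted p = 0.040), and against 245 ± 17.2 at 8 h it rose by 0.56 ± 0.20 (adjusted p = 0.037). Both calls are close to the threshold. The first ended without 8 h replicate 2 or 3, or without any 1 array of 80 h or 102 h (adjusted p from 0.052 to 0.13, log2 change from -0.76 to -0.62) and with centred arrays, each set to a common median of its S. cerevisiae probe sets (-0.65, adjusted p = 0.065). The second ended without any 1 array of 8 h or 102 h (adjusted p from 0.050 to 0.096, log2 change from 0.52 to 0.61) and, at 0.45, on the authors' scale (adjusted p = 0.12). At 30 h ZRT2 stood 0.99 ± 0.23 above 8 h (adjusted p = 0.073), and this was 1.50 without 30 h replicate 2 (adjusted p = 6.7e-04) but 0.48 without 30 h replicate 1 (adjusted p = 0.99). The difference passed when 60 h replicate 1 was left out (adjusted p = 0.041), and at 0.96 when all low-5′ arrays were (adjusted p = 0.033). For 60 h against 30 h the value of 0.39 (adjusted p = 0.21) was 0.91 without 30 h replicate 1 (adjusted p = 0.0035).

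The vacuolar genes are ZRT3, ZRC1 and COT1. ZRT3, whose product releases zinc from the vacuole, gave 3179, 2804 and 2857 at 8 h, 3234 and 2878 at 30 h, 3927, 3372 and 2857 at 60 h, 2972, 3409 and 3369 at 80 h, and 2100, 2296 and 2019 at 102 h. Its ranges at 8, 30, 60 and 80 h overlapped, and only the 102 h arrays lay apart, below all others. ZRT3 averaged 2138 ± 142 at 102 h, against 3250 ± 242 at 80 h (SD, n = 3 each), and fell by 0.60 ± 0.13 (limma adjusted p = 0.0079). It fell by 0.46 ± 0.13 for 102 h against 8 h (adjusted p = 0.0081). The call against 8 h remained under every alternative run, and the call against 80 h under all but 1: with centred arrays the value was -0.36 (adjusted p = 0.12).

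ZRC1, whose product moves zinc into the vacuole, was highest at 8 h. Its signals were 1587, 2011 and 1914 at 8 h, 1425 and 1891 at 30 h, 869, 1104 and 1003 at 60 h, 1384, 1523 and 1244 at 80 h, and 1080, 1178 and 1147 at 102 h. All arrays of 60 h and of 102 h were below all arrays of 8, 30 and 80 h, and 60 h and 102 h overlapped. ZRC1 averaged 992 ± 118 at 60 h (SD, n = 3), against 1658 ± 329 at 30 h (SD, n = 2), and fell by 0.73 ± 0.16 (limma adjusted p = 0.0052), and by 0.71 without the low-5′ arrays (adjusted p = 0.0053). It then rose by 0.48 ± 0.14 at 80 h, against 60 h (adjusted p = 0.033). Over the whole fermentation ZRC1 fell by 0.69 ± 0.14 to 1135 ± 50.2 at 102 h, against 1837 ± 222 at 8 h (SD, n = 3 each, adjusted p = 0.0017), and this call remained in all alternatives run. The call at 60 h ended when 30 h replicate 2 was left out (-0.53, adjusted p = 0.095). The call at 80 h ended when 60 h replicate 1 was left out (0.39, adjusted p = 0.078), and likewise for 80 h replicates 1 and 2 (adjusted p = 0.090 and 0.13). It stood at 0.37 with centred arrays (adjusted p = 0.081) and at 0.34 with a covariate for 5′ over 3′ signal (adjusted p = 0.064).

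COT1, the paralogue of ZRC1 that carries cobalt and zinc into the vacuole, passed in no comparison. It gave 475, 494 and 474 at 8 h, 595 and 495 at 30 h, 906, 512 and 716 at 60 h, 567, 691 and 631 at 80 h, and 593, 512 and 547 at 102 h. The 8 h arrays were the lowest, and every other neighbouring pair of times in the order of the means overlapped. Its log2 change for 102 h against 8 h was 0.19 ± 0.18 (limma adjusted p = 0.38), where ZRC1 fell by 0.69. The 60 h arrays were the most spread of the 5 times for COT1 (SD of 197 around a mean of 711), with low 5′ signal on the highest and on the lowest of them. Without 60 h replicate 2 COT1 stood at 0.57 for 60 h against 30 h and passed (adjusted p = 0.027).

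The 3 IZH genes were the members with the largest changes from 8 h to 102 h. IZH1 gave 1247, 1860 and 1761 at 8 h, 4400 and 2897 at 30 h, 5690, 5425 and 5180 at 60 h, 6567, 6035 and 5924 at 80 h, and 5425, 5369 and 5641 at 102 h. Its 8 h arrays lay below the 30 h arrays and these below all later ones, and the ranges of 60 h and 102 h overlapped. IZH1 averaged 5478 ± 144 at 102 h, against 1623 ± 329 at 8 h (SD, n = 3 each), and rose by 1.78 ± 0.16 (limma adjusted p = 3.9e-06), which was 1.60 to 1.89 over the alternatives run.

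IZH1 changed before 60 h. It averaged 3649 ± 1062 at 30 h (SD, n = 2), against 1623 ± 329 at 8 h (SD, n = 3), a rise of 1.16 ± 0.18 (limma adjusted p = 0.030). It was the only zinc gene higher at this step, where 0.112% of all probe sets were higher and 0.131% lower (0.244% in all). From 30 h it rose by 0.60 ± 0.18 to 5432 ± 255 at 60 h (adjusted p = 0.025). At 80 h and at 102 h IZH1 did not pass against the time before (0.18 and -0.17), and with centred arrays these values were -0.15 and 0.07. The call for 30 h against 8 h had a value of 0.98 without the low-5′ arrays. It ended without 8 h replicate 3, 30 h replicate 1 (0.86, adjusted p = 0.45) or 60 h replicate 2, and without any 1 array of 80 h or 102 h (adjusted p from 0.051 to 0.084 for the others), and with the arrays of both times alone (adjusted p = 0.47). The call for 60 h against 30 h ended without 30 h replicate 2 (0.30, adjusted p = 0.34), when 60 h replicate 2 was left out (adjusted p = 0.056) and with centred arrays (0.52, adjusted p = 0.097).

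IZH2 and IZH4 had their largest step between 60 h and 80 h. IZH2, known to respond to zinc and to fatty acids, gave 1126, 1426 and 1343 at 8 h, 1955 and 1618 at 30 h, 2428, 2405 and 2019 at 60 h, 4561, 4437 and 4519 at 80 h, and 4254, 4377 and 4203 at 102 h. No 2 times overlapped, in the order 80, 102, 60, 30 and 8 h. IZH2 averaged 4506 ± 63.2 at 80 h, against 2284 ± 230 at 60 h (SD, n = 3 each), and rose by 0.98 ± 0.12 (limma adjusted p = 2.9e-04), or by 1.16 without the low-5′ arrays. For 102 h, with a mean of 4278 ± 89.6 (SD, n = 3), against 8 h, at 1298 ± 155, the rise was 1.73 ± 0.12 (adjusted p = 4.8e-07). The smaller differences of IZH2 before 60 h did not pass, at 0.46 for 30 h against 8 h (adjusted p = 0.13) and 0.36 for 60 h against 30 h (adjusted p = 0.063). The first passed at 0.36 without the low-5′ arrays (adjusted p = 0.042) and at 0.60 without 30 h replicate 2 (adjusted p = 0.047). The second passed without 8 h replicate 1 (adjusted p = 0.034), 30 h replicate 1 (0.49, adjusted p = 0.040) or 60 h replicate 3 (0.44, adjusted p = 0.025).

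IZH4 gave 699, 578 and 582 at 8 h, 616 and 827 at 30 h, 1014, 723 and 683 at 60 h, 1515, 1647 and 1523 at 80 h, and 1587, 1496 and 1535 at 102 h. The signals fall into a lower set of times, 8, 30 and 60 h, which overlap each other, and an upper set, 80 and 102 h, which also overlap. Its mean was 1562 ± 73.9 at 80 h, against 807 ± 181 at 60 h (SD, n = 3 each), a rise of 0.98 ± 0.16 (limma adjusted p = 0.0015), or 1.19 without the low-5′ arrays. For 102 h against 8 h IZH4 rose by 1.32 ± 0.16 (adjusted p = 3.0e-05). These calls of IZH2 and IZH4 remained under every alternative run.

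By step, 6 of the 9 genes passed in at least 1 comparison of a time with the time before, and ZAP1, ZRT1 and COT1 in none. The share of all probe sets that passed in at least 1 step was not computed, so this count has no background beside it. In 60 h against 30 h, 1 was higher (IZH1) and 1 lower (ZRC1), where 16.2% of all probe sets were higher and 11.7% lower (28% in all). In 80 h against 60 h, 3 were higher (ZRC1, IZH2 and IZH4) and none lower, where 9.42% were higher and 10.9% lower (20.3% in all). In 102 h against 80 h, none was higher and 2 were lower (ZRT2 and ZRT3), where 7.59% were higher and 8.36% lower (15.9% in all). The medians of the 9 genes at the 4 steps were 0.21, 0.16, 0.10 and -0.19, against -0.04, 0.05, -0.04 and -0.04 for all tested probe sets. On the authors' scale those medians of all probe sets were -0.18, 0.09, 0.25 and -0.31, so directions of small changes depend on the scale. With that scale 1122 probe sets were higher and 176 lower in 80 h against 60 h, where quantile normalization gave 503 and 582, and 123 were higher and 1419 lower in 102 h against 80 h, where it gave 405 and 446.

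**Figure D2:**
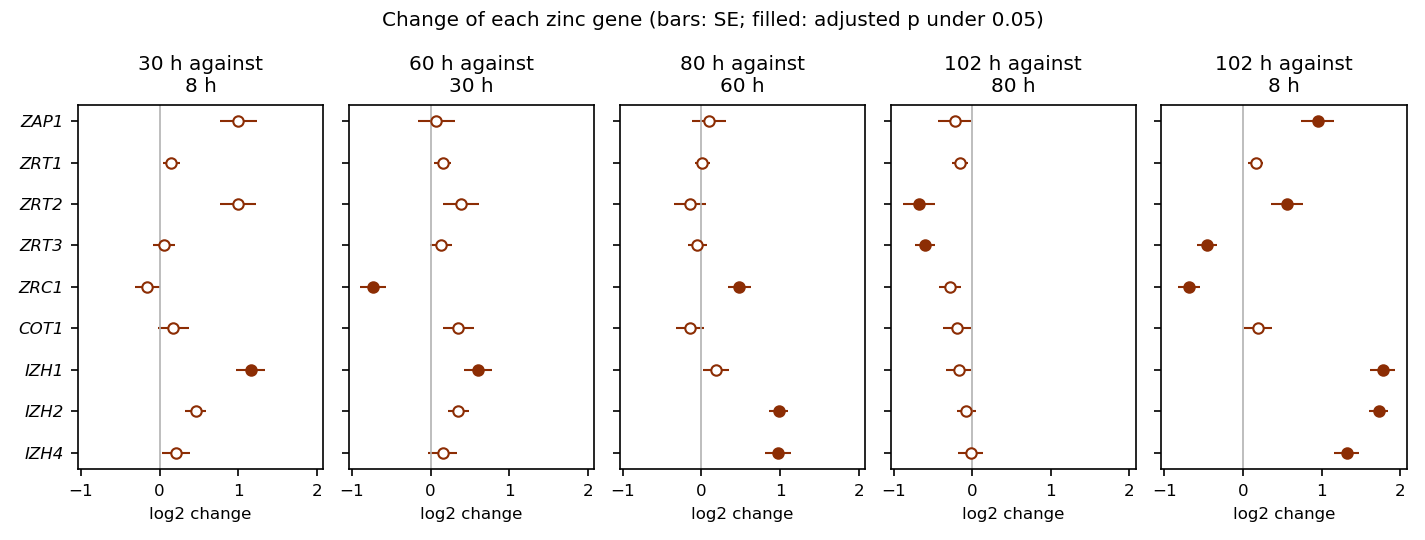
Log2 change of each of the 9 zinc genes (points; bars are the SE of the limma fit) in the 5 comparisons of times; filled points have an adjusted p under 0.05. The 3 IZH genes, ZAP1 and ZRT2 are filled on the right of 0 for 102 h against 8 h and ZRT3 and ZRC1 on the left, while ZRT1 and COT1 have no filled point.

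Members whose signals went up and down together over the 14 arrays are given as a description, since all correlations share the same arrays and times. IZH2 and IZH4 correlated at 0.931 (Pearson r of log2 signal), and at 0.967 over the 11 arrays without low 5′ signal. ZAP1 correlated with IZH1 at 0.920 (0.903 without those arrays), with ZRT2 at 0.825 (0.908) and with ZRT1 at 0.634 (0.907). ZRT3 had little in common with ZAP1 (0.023 and 0.193), and ZRC1 ran against IZH1 (-0.716 and -0.806). Among the 36 pairs the lowest value over 14 arrays was that of ZRC1 and IZH1.

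The tested genes most like each member by this measure were the following. For ZAP1 they were HBT1 (0.974), AFT2, an activator of iron genes (0.952), and FAT3 (0.951). For IZH1 they were DAP1, a haem-binding protein gene (0.981), the stress gene DDR2 (0.977) and HYP2, a translation factor gene (0.975). IZH2 was most like HUG1 (0.980), NSA2 of ribosome assembly (0.980) and the glucan synthase gene GSC2 (0.977). IZH4 was most like UTP21 (0.968), YKL068W-A (0.959) and NMD3 (0.950), of which UTP21 and NMD3 are known from ribosome assembly and export. ZRC1 was nearest to OPT2 (0.970), the ceramide synthase gene LAC1 (0.959) and ABP140 (0.954). ZRT1 was nearest to DNF3 (0.937), CSM4 (0.914) and SPG4 (0.910), and ZRT2 to SHC1 (0.959), NQM1 (0.943) and YNL195C (0.938). ZRT3 was nearest to TEX1 (0.952), YJL132W (0.939) and OSH6 (0.939), and COT1 had the lowest best match, DCK1 (0.885).

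Other genes that carry zinc or related metals gave mixed changes. Of 8 such genes 7 passed the F-test, and for 102 h against 8 h 3 were higher and 1 lower, with a median of 0.06. Of all tested probe sets 68.5% passed the F-test, and 21.6% were higher and 28.6% lower in that comparison, with a median of -0.09. IZH3, the remaining IZH gene, gave means of 165, 210, 236, 667 and 437 in time order, rose by 1.72 ± 0.36 for 80 h against 60 h (limma adjusted p = 0.0060) and was higher at 102 h than at 8 h by 1.43 ± 0.36 (adjusted p = 0.0054). The first of these was 0.81 without the low-5′ arrays (adjusted p = 0.0012), since IZH3 gave 93.0 on 60 h replicate 1, 233 on replicate 2 and 380 on replicate 3. FET4, a low-affinity transporter of iron, zinc and copper under Zap1 control, rose by 0.75 ± 0.17 for 80 h against 60 h (adjusted p = 0.0093), and averaged 2474 ± 63.6 at 102 h, against 1625 ± 299 at 8 h (SD, n = 3 each).

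PHO84, a high-affinity phosphate transporter gene whose product can also carry zinc, had means of 37.8, 40.2, 65.3, 522 and 1133 in time order. It rose by 4.93 ± 0.18 for 102 h against 8 h (limma adjusted p = 3.1e-09). MSC2 and ZRG17, which together code for a zinc transporter of the endoplasmic reticulum, gave means of 491 and 352 at 102 h, against 716 and 529 at 80 h. MSC2 fell by 0.54 ± 0.14 (adjusted p = 0.023) and ZRG17 stood at -0.59 ± 0.21 (adjusted p = 0.097), and passed with the same value without the low-5′ arrays (adjusted p = 0.0031) and without 60 h replicate 1 or 3 (adjusted p = 0.019 and 0.039). The call of MSC2 ended without 80 h replicates 2 or 3 or any 1 array of 102 h (adjusted p from 0.059 to 0.094). YKE4, another zinc transporter gene, passed in no comparison over all 14 arrays. For 102 h against 80 h it stood at 0.89 ± 0.40 (adjusted p = 0.15), and passed with the same value without the low-5′ arrays (adjusted p = 0.0013) and without 60 h replicate 1 alone (adjusted p = 0.044). The manganese transporter gene SMF2 fell by 0.64 ± 0.10 for 102 h against 8 h (adjusted p = 1.6e-04).

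Of 19 further genes known as Zap1 targets 13 passed the F-test, and for 102 h against 8 h 5 were higher and 4 lower, with a median of 0.16. These counts are close to the shares of all tested probe sets, 68.5% for the F-test, 21.6% higher and 28.6% lower. NRG2, a repressor gene, gave means of 601 at 102 h, against 123 at 8 h, and rose by 2.29 ± 0.25 (limma adjusted p = 1.4e-05). MET30, a regulator of sulphur metabolism, rose by 1.32 ± 0.13 (adjusted p = 5.3e-06), ATG41 by 1.31 ± 0.35 (adjusted p = 0.0072), the wall protein gene PST1 by 1.27 ± 0.18 (adjusted p = 8.8e-05) and UTH1 by 1.24 ± 0.29 (adjusted p = 0.0030). VEL1, which is strongly induced in zinc-starved laboratory strains, fell by 1.62 ± 0.26 (adjusted p = 2.3e-04), and EKI1, ethanolamine kinase of phospholipid synthesis, fell by 0.77 ± 0.17 (adjusted p = 0.0026). MCD4 and RAD27 were the other genes that were lower, at -0.37 and -0.62, and at -0.47 and -0.49 without the low-5′ arrays. Both calls ended when certain single arrays were left out. That of MCD4 ended without 8 h replicate 2 or 3 or 102 h replicate 1 or 3 (limma adjusted p from 0.069 to 0.12). That of RAD27 ended without 8 h replicate 1 (-0.49) or 102 h replicate 1 or 2 (limma adjusted p from 0.064 to 0.092).

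In 102 h against 80 h none of these 19 genes was higher and 6 were lower, with a median of -0.36, where 7.59% of all probe sets were higher and 8.36% lower, with a median of -0.04. They were RAD27, which fell by 1.36 ± 0.21 (limma adjusted p = 0.0017), URA10 by 0.72 ± 0.12 (adjusted p = 0.0028), MNT2 by 0.52 ± 0.11 (adjusted p = 0.0079), ZPS1 by 0.77 ± 0.19 (adjusted p = 0.017), DPP1 by 0.61 ± 0.16 (adjusted p = 0.026) and MCD4 by 0.44 ± 0.13 (adjusted p = 0.037). Without the low-5′ arrays 10 were lower and 2 higher, and of all 5336 probe sets tested there 1231 were lower and 1053 higher. With centred arrays ZPS1 stood at -0.55 (adjusted p = 0.10) and DPP1 at -0.38 (adjusted p = 0.19). The last 3 also ended without single arrays of 80 h or 102 h: ZPS1 without 80 h replicate 2 or 3 or 102 h replicate 3 (adjusted p from 0.063 to 0.073), and DPP1 and MCD4 without any 1 of these 6 arrays (adjusted p from 0.056 to 0.13), MCD4 also without 8 h replicate 3.

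**Figure D3:**
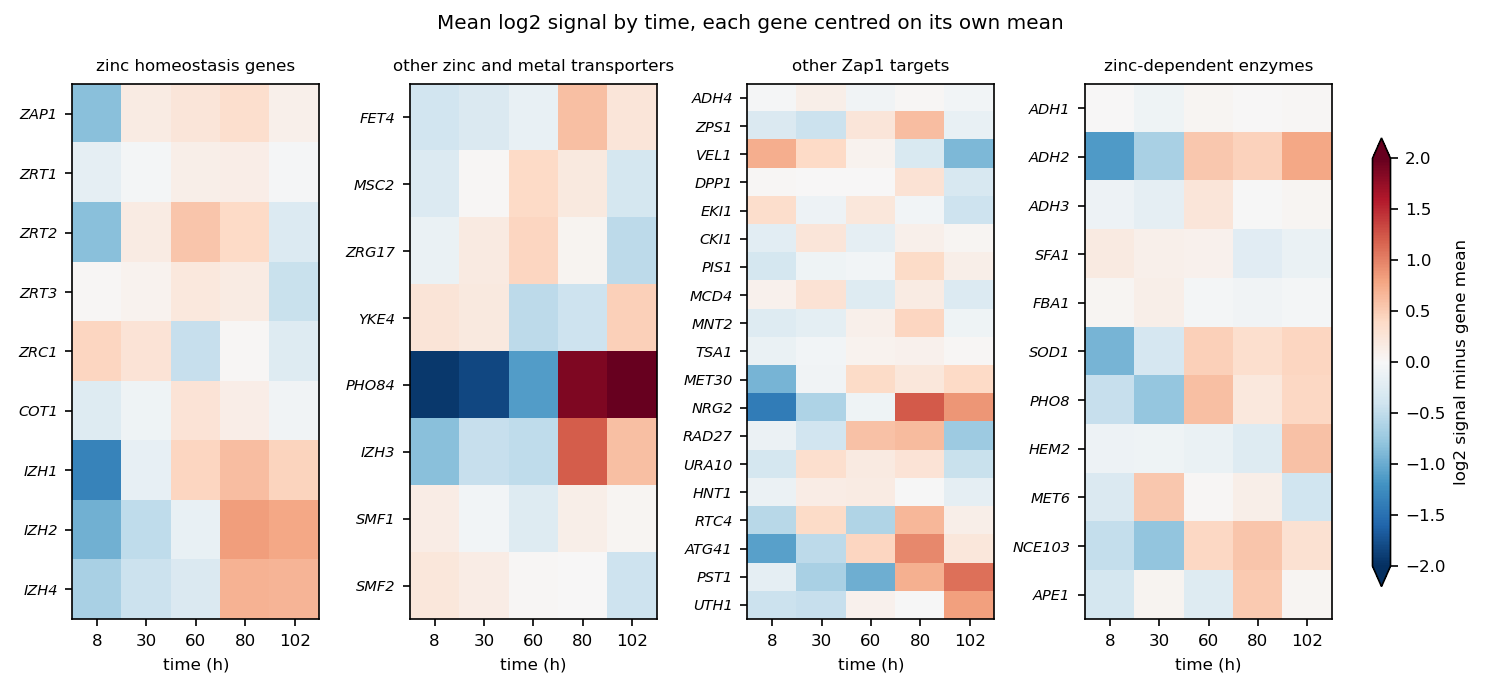
Mean log2 signal at each time (columns, h) of the 9 zinc homeostasis genes and of the genes of 3 further lists (rows), each gene centred on its own mean over the 5 times; red is higher and blue lower, and the scale stops at -2 and 2, which PHO84 exceeds at 102 h. PHO84 has the widest range, and among the zinc homeostasis genes IZH1 and IZH2 have, with means 3.86-fold and 3.49-fold apart.

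ZRT1 stands in a row with other Zap1 targets. In the gene table of S. cerevisiae assembly R64 the protein-coding genes VEL1, MNT2, ADH4 and ZRT1 follow each other on chromosome VII. VEL1 gave 887, 1085 and 1109 at 8 h, 688 and 952 at 30 h, 848, 825 and 382 at 60 h, 580, 482 and 452 at 80 h, and 343, 367 and 292 at 102 h. MNT2, a mannosyltransferase gene, averaged 845, 883, 1084, 1357 and 948 in time order and was highest at 80 h. ADH4, an alcohol dehydrogenase gene that zinc-limited cells are known to use, averaged 8521 ± 213 at 102 h, against 8688 ± 407 at 8 h (SD, n = 3 each; F-test of limma, adjusted p = 0.56). On the authors' scale ADH4 averaged 8739 at 102 h and 6954 at 8 h, so its direction depends on the scale. The median log2 change of all probe sets on that scale was -0.16. Of these 4 neighbours, VEL1 was lower at 102 h than at 8 h after quantile normalization. MNT2, ADH4 and ZRT1 did not pass in that comparison (0.17, -0.03 and 0.16). VEL1 has a close relative elsewhere in the genome, and its signal may hold transcripts of both.

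**Figure D4:**
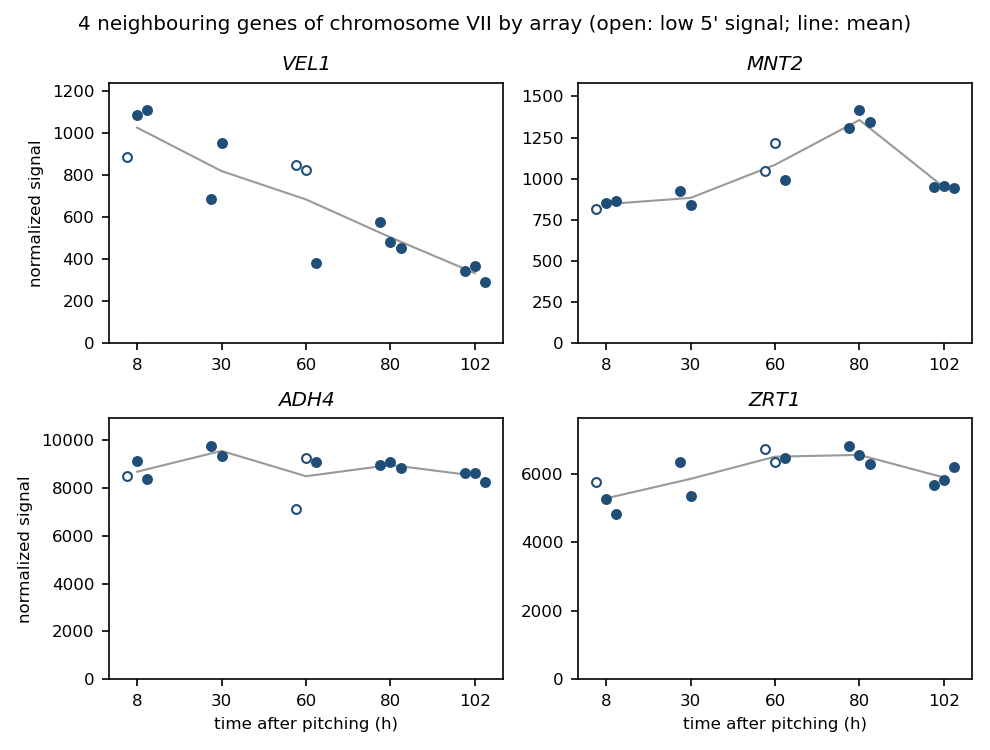
Normalized signal (vertical axes, linear, each panel with its own scale from 0) of VEL1, MNT2, ADH4 and ZRT1 on each array by time after pitching in h; open points are low-5′ arrays and grey lines join the means. VEL1 is lowest at 102 h, MNT2 highest at 80 h, and the ranges of ADH4 at 102 h and 8 h overlap.

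Genes of zinc-dependent enzymes did not move as one. Of 11 such genes 5 passed the F-test, and the same number were higher at 102 h than at 8 h, with none lower and a median of 0.39. Of all tested probe sets 68.5% passed the F-test, and 21.6% were higher and 28.6% lower at 102 h than at 8 h. Without the low-5′ arrays 6 of the 11 were higher and 2 lower, SFA1 at -0.38 (limma adjusted p = 0.0035) and MET6 at -0.44 (adjusted p = 0.0038), where 1525 of 5336 probe sets were higher and 1799 lower. ADH2, the glucose-repressed alcohol dehydrogenase, rose by 1.91 ± 0.25 (limma adjusted p = 4.5e-05), SOD1, the copper and zinc superoxide dismutase, by 1.36 ± 0.14 (adjusted p = 8.1e-06), PHO8, the vacuolar alkaline phosphatase, by 0.87 ± 0.13 (adjusted p = 1.5e-04), the carbonic anhydrase gene NCE103 by 0.78 ± 0.21 (adjusted p = 0.0083) and HEM2, of haem synthesis, by 0.68 ± 0.20 (adjusted p = 0.013). HEM2 stood at 0.55 without 8 h replicate 1 (adjusted p = 0.054). ADH1, the main fermentative alcohol dehydrogenase, averaged 4883 ± 90.1 at 102 h, against 4875 ± 118 at 8 h (SD, n = 3 each; log2 change 0.002 ± 0.11, adjusted p = 0.99). The mitochondrial ADH3 stood at 0.14 and the aldolase gene FBA1 at -0.09, and neither passed. FBA1 went the other way on the authors' scale, with means of 8075 at 102 h and 6871 at 8 h.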

How the data were processed

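The files hold 1 signal intensity per probe set and array on a linear scale, as the authors deposited them. GCOS 5.0 is named in the submitters' processing notes, and the algorithm and scaling target are not given in the sources used here. Of 10928 probe sets, 5498 were annotated to exactly 1 S. cerevisiae gene, and names were updated through the gene table of assembly R64 (99.8% of symbols were equal). Signals were quantile-normalized over 14 arrays, set to a floor of 5.575 (the median of the dimmer probe sets) and taken to log2. A probe set was tested when 2 arrays of some time were above 22.1, the 95th percentile of the dimmer part of the array, which left 5338. limma 3.58.1 in R 4.3.3 (lmFit, eBayes with an intensity trend, code tested on simulated data) was fitted to all arrays with a mean per time, and p-values were adjusted over all tested probe sets by Benjamini-Hochberg. The number of arrays limits the precision. Low-5′ arrays had a mean log2 ratio of 5′ to 3′ control signal under -1.5, a limit set after the values were seen. The 9 genes and 3 further gene lists, all of whose genes may be named, were chosen with earlier results of these data known; beside each of the 9, the 3 most correlated tested genes are named (for COT1 the first). No arrays held identical values. Alternatives (29) changed the scale, floor, filter, variance model, threshold, arrays in the fit and replicate block, or left out 1 array. Promoter and protein sequences were not analysed here.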

Additional observations from a re-analysis of the deposited data

How the results depend on the processing

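No call of a zinc gene reversed in any alternative run. The number of zinc genes passing the F-test (7) lay between 7 and 9, and the numbers called in 80 h against 60 h (3; 2 to 3 when 1 array was left out) and in 102 h against 8 h (7; 6 to 7) stayed within 1.5 times. The number in 30 h against 8 h (1) was 0 with the replicate block, at an adjusted p under 0.01 and with the arrays of both times alone (0 of 5264 probe sets called), 4 without the low-5′ arrays (8.13% of all probe sets called) or with a covariate for 5′ over 3′ signal (8.02%), and 0 to 4 when 1 array was left out. In 60 h against 30 h (2) it was 1 with centred arrays (28% of all called) and at an adjusted p under 0.01 (15.1%), 0 with the arrays of both times alone (4.29% of all called; limma adjusted p = 0.11 for ZRC1 and 0.14 for IZH1), and 0 to 4 when 1 array was left out. In 102 h against 80 h (2) it was 0 with centred arrays (13.1% of all called), 1 at an adjusted p under 0.01 (5.34%), 6 with the arrays of both times alone (48.8%), and 1 to 2 when 1 array was left out. When 1 array was left out, the share of all probe sets called lay between 0% and 5.64% in 30 h against 8 h. It lay between 10.5% and 34.4% in 60 h against 30 h, and between 10.2% and 28.9% in 80 h against 60 h. For 102 h it lay between 6.86% and 25.4% against 80 h and between 41.3% and 58.1% against 8 h. The cause of the differences between settings was not tested. Same-numbered samples of different times deviated from their group means with correlations of -0.136 to 0.740 (median 0.01, 26 pairs). Differently numbered samples gave -0.703 to 0.618 (median 0.0035, 52 pairs), so the numbers were not shown to pair the samples. The value of 0.740 was that of 8 h replicate 1 and 60 h replicate 1, both low-5′ arrays. With the replicate block IZH1 in 30 h against 8 h had an adjusted p of 0.063, and 1 probe set of 5338 passed there, against 13 without it. A block of chip lot or hybridisation day was not run, since the scanner files hold only the chip type.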
